A study of Mus musculus with 4 samples.

Results

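The metallothioneins are the genes Mt1 (ENSMUSG00000031765), Mt2 (ENSMUSG00000031762) and Mt3 (ENSMUSG00000031760), 3 of the 32285 genes listed in the count matrices, found by their exact symbols so that the mitochondrial genes with similar names stayed out. They were followed through 4 single-cell RNA libraries of mouse hindlimb muscle. Male S100GFP-tg mice aged 2 months, whose Schwann cells fluoresce because GFP is under the S100B promoter, were either otherwise wild type (WT) or Sod1KO (S100GFPtg Sod1-/-, lacking the copper and zinc superoxide dismutase), so the reporter transgene was shared by all groups. Tibialis anterior and gastrocnemius muscles of 4 mice were pooled per genotype, digested, and sorted by GFP, giving 1 GFP+ and 1 GFP- library per genotype. Each group is 1 library, so nothing could be tested across animals, each difference is between 2 libraries, and genotype cannot be told apart from pool or preparation. Every interval below is an exact 95% interval and covers counting error only.

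Metallothioneins are small proteins rich in cysteine that bind zinc and copper. Mt1 and Mt2 are made by most tissues and are induced by metals through the zinc-sensing factor MTF-1, by glucocorticoids and by oxidative stress. Mt3 is best known from the brain, where it was described as a growth inhibitory factor of neurons, and is poorly induced by metals. Mt4, the remaining member of the mouse gene cluster, belongs to stratified epithelium and is outside the 3 genes followed here.

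On GRCm38.p6 the 3 genes lay on the plus strand of chromosome 8 in the order Mt3 (94152607 to 94154148), Mt2 (94172618 to 94173567) and Mt1 (94178883 to 94180327). Mt2 and Mt1 were 5315 bp apart, and Mt3 ended 18469 bp before Mt2. The 250 bases before the RefSeq start of each gene (RefSeq windows on GRCm38.p6, matched by symbol for 3 of 3 members) are printed 5′ to 3′ because Mt1 and Mt2 moved together across cell types while Mt3 did not. Capitals mark matches, on either strand, to the core of the metal response element bound by MTF-1, spelled TGCACNC or TGCGCNC.
Mt1 (chr8:94178839-94179088, plus strand): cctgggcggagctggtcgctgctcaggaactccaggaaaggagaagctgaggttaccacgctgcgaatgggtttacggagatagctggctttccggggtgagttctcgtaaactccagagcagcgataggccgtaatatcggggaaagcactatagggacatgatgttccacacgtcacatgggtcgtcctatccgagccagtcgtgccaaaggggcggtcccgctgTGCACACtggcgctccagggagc
Mt2 (chr8:94172368-94172617, plus strand): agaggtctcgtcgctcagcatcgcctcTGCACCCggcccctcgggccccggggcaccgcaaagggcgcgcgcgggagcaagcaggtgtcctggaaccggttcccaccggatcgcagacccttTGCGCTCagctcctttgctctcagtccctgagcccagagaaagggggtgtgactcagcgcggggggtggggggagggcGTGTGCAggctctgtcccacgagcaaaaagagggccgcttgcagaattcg
Mt3 (chr8:94152357-94152606, plus strand): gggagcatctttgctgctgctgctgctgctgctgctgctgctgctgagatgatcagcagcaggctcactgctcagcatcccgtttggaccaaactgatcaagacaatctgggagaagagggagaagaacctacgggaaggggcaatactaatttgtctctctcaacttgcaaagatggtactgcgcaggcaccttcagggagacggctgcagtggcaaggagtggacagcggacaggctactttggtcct
The core matched once before Mt1, 3 times before Mt2 and 0 times before Mt3, and 21.4% of the 32851 windows of this length hold at least 1 match. Widening the window by the 50 bases after the start gave 3, 4 and 1 matches, against 25.7% of windows with at least 1 and 1.97% with at least 3. The RefSeq span of Mt1 begins inside its window, at 94178883, so the window belongs to only 1 of the starts of that gene. The short glucocorticoid receptor site AGAACA matched in none of the 3 windows of 250 bases (16.1% of all windows hold it). The antioxidant response element core, TGACNNNGC or TGAGNNNGC, matched once before Mt2 and once before Mt3 but not before Mt1 (23% of all windows hold it). These matches describe letters in a window and were not tested as binding sites.

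The libraries held 5498 (WT GFP+), 7267 (Sod1KO GFP+), 2052 (WT GFP-) and 6598 (Sod1KO GFP-) barcodes, of which 4557, 5925, 1638 and 5143 were kept as cells. Clustering without the 3 genes gave 37 clusters, and 11 classes were named from their markers. Taken over a class, every listed marker passed the limits for naming except 1 of 11 in tSC-like and 1 of 10 in mesenchymal-like cells. The clusters were named by these same markers, so this is no separate check of the names. Single clusters passed fewer, such as 5 of 11 in tSC-like cluster 11 and 3 of 9 in endothelial-like cluster 24. The WT GFP- library stood apart, with the fewest cells, the lowest median depth (6152.5 UMIs per barcode against up to 13825.5) and 57.6% of its cells in unnamed clusters, so every GFP- comparison of the genotypes rests on it. Pairs of libraries shared 1 to 13 barcodes. Sod1 itself was counted at 90.8 and 98.3 CPM (UMIs of a gene scaled to a library total of 1e+06) in WT and Sod1KO GFP+ and at 124 and 113 in GFP-. Tags from the 3′ end can lie outside the deleted part and check nothing, so the genotypes are those of the labels.

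Mt1 was an abundant message. Over all kept cells Mt1 held 0.247% (WT) and 0.140% (Sod1KO) of the UMIs of the GFP+ libraries, and 0.0508% and 0.0612% of the GFP- ones. Mt2 held 0.0618% and 0.0367%, then 0.0105% and 0.0170%, and Mt3 0.0169% and 0.00898%, then 0.00264% and 0.00178%. The GFP+ fraction, which gathers the Schwann cells, was thus the richer in all 3 genes in both genotypes. These values are counts of 3′ tags and were compared between cells for 1 gene at a time.

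Myelinating Schwann cell-like (mSC-like) cells, the glia that wrap motor axons, had the highest Mt1 level in CPM of the 10 classes in both GFP+ libraries. Mt1 stood at 5135 CPM (5082 to 5188) in WT GFP+ and 3105 CPM (3054 to 3158) in Sod1KO GFP+. Satellite-like cells, the Pax7-expressing stem cells of muscle fibres, came second at 4568 and 2636 CPM, with 2378 CPM when sorted GFP- from the Sod1KO pool. The order below them in WT GFP+ was tenocyte-like (2555 CPM), mesenchymal-like (2448 CPM) and smooth muscle-like (2273 CPM). Macrophage-like (1576 CPM) and perineurial-like cells (1471 CPM) had overlapping intervals there, as had perineurial-like and nonmyelinating Schwann cell-like (tSC-like) cells at 1419 CPM. The tSC-like markers were those of nonmyelinating Schwann cells in general, and the class included cluster 33, led by Scn7a and Gfra3. Endothelial-like (748 CPM) and pericyte-like cells (246 CPM) were lowest, so the classes of that library spanned 20.9-fold. This order is of CPM, and mSC-like cells were shallow, at a median of 6237.5 UMIs in WT GFP+ against 29342 in tenocyte-like cells. Per cell, mSC-like cells held 33.9 (WT) and 20.8 (Sod1KO) Mt1 UMIs in GFP+. Tenocyte-like (81.5 and 33.5), satellite-like (66.1 and 29.0), mesenchymal-like (51.8 and 26.7) and smooth muscle-like cells (49.9 and 26.0) held more.

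The GFP- libraries, which lacked enough Schwann-like cells for a value, put other cells first among classes of at least 20 cells. In WT GFP- smooth muscle-like cells led with 2432 CPM, followed by mesenchymal-like cells with 1678 CPM. In Sod1KO GFP- satellite-like cells led, followed by smooth muscle-like cells with 1986 CPM and mesenchymal-like cells with 1442 CPM. Endothelial-like cells were at 79.9 CPM (WT) and 127 CPM (Sod1KO) there, and lymphatic endothelial-like cells, measured in Sod1KO GFP- only, at 66.4 CPM. Vessel-lining cells were thus the poorest in Mt1 in the GFP- libraries, whereas pericyte-like cells were poorest in WT GFP+.

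Satellite-like cells ranked first for Mt2, at 2159 CPM (WT) and 1457 CPM (Sod1KO) in the GFP+ sort and 1419 CPM (Sod1KO) in the GFP- sort. Mesenchymal-like (1072 CPM), mSC-like (1048 CPM) and tenocyte-like cells (966 CPM) came next in WT GFP+, and the intervals of the first pair of these overlapped. Smooth muscle-like cells, rich in Mt1, had little Mt2, at 215 CPM in WT GFP+ and 130 CPM in Sod1KO GFP+. The classes therefore differed in the balance of these genes as well as in their level.

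**Figure D1:**
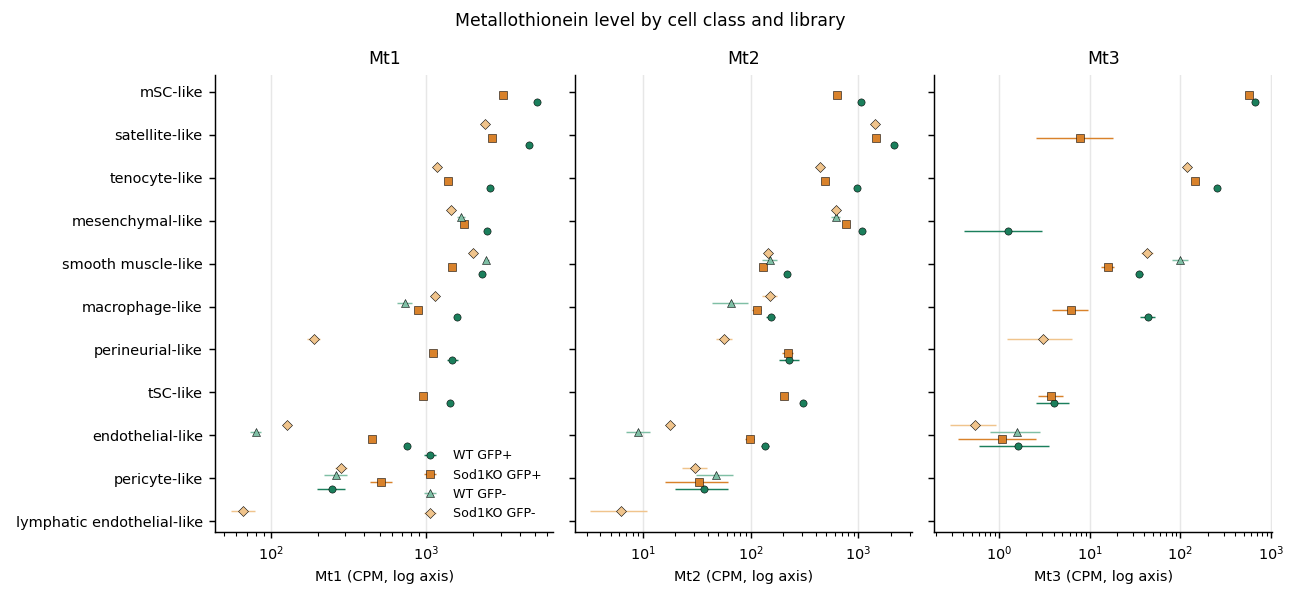
Level of Mt1, Mt2 and Mt3 in CPM (log axes) for each class with at least 20 cells, with 1 point per library and bars for exact Poisson 95% intervals. Mt1 in mSC-like cells reaches 5135 CPM in WT GFP+, and points at 3 UMIs or fewer are left out.

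The share of Mt2 among the Mt1 and Mt2 UMIs differed between classes, and in several it stayed close between libraries. In satellite-like cells it was 32.1% (30.6 to 33.6) and 35.6% (33.8 to 37.5) in the WT and Sod1KO GFP+ libraries, and 37.4% (35.2 to 39.6) when the Sod1KO cells were sorted GFP-. Mesenchymal-like cells gave 30.5%, 30.2%, 26.8% and 30.2% (WT then Sod1KO of the GFP+ sort, then of the GFP- sort), and tenocyte-like cells 27.4%, 26.0% and 27.1% in the libraries that held enough of them (WT GFP+ and both Sod1KO libraries). Both Schwann-like classes had an intermediate share, the muscle's connective tissue cells a high one.

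In mSC-like cells the Mt2 share was 16.95% (16.6 to 17.3) in WT and 17.05% (16.5 to 17.6) in Sod1KO, and in tSC-like cells it was 17.8% in both genotypes. Smooth muscle-like cells had the lowest share in WT GFP+ and WT GFP-, at 8.65% and 5.80%, with 8.23% and 6.74% in the Sod1KO libraries. The share thus hardly moved between genotypes in Schwann-like cells, although the level of each gene did. Other classes varied more, from 13.4% (11.0 to 16.2) in WT GFP+ to 23.1% (19.6 to 26.8) in Sod1KO GFP- in perineurial-like cells, from 10.1% to 17.9% in endothelial-like cells and from 6.10% to 15.3% in pericyte-like cells.

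**Figure D2:**
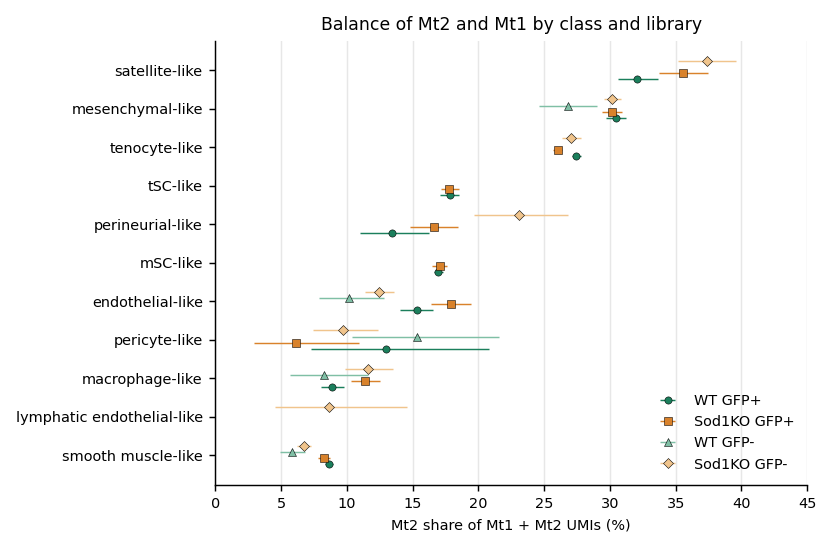
Share of Mt2 among the summed Mt1 and Mt2 UMIs, in percent, by class and library, with Clopper-Pearson 95% intervals. The share runs from 5.80% in smooth muscle-like cells of WT GFP- to 37.4% in satellite-like cells of Sod1KO GFP-, and libraries lie close together in mSC-like, tSC-like and tenocyte-like cells but not in perineurial-like cells.

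Mt3 was restricted to fewer cells than Mt1 or Mt2. Among named classes of at least 20 cells its CPM was highest in mSC-like cells. It was 675 CPM (4800 UMIs) in WT GFP+ and 567 CPM (2493 UMIs) in Sod1KO GFP+. Tenocyte-like cells, which make tendon, followed at 255 CPM (WT) and 146 CPM (Sod1KO) in GFP+, and 118 CPM when sorted GFP- from Sod1KO. Per cell, mSC-like cells held 4.46 (WT) and 3.80 (Sod1KO) Mt3 UMIs in GFP+, and tenocyte-like cells 8.15 and 3.52. The mSC-like and tenocyte-like cells held 39.9% and 40.9% of the Mt3 UMIs of WT GFP+, and 31.0% and 56.7% of those of Sod1KO GFP+.

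Smooth muscle-like cells had a lower level of Mt3, at 35.2 CPM (WT) and 15.8 CPM (Sod1KO) in GFP+ and 98.8 and 43.4 CPM in GFP-. tSC-like cells, the other glia of the sample, were near the floor, at 4.01 CPM (24 UMIs) and 3.74 CPM (40 UMIs). Endothelial-like, mesenchymal-like, perineurial-like and pericyte-like cells all stood below 4 CPM in every library, and satellite-like cells had 0 (WT) and 5 (Sod1KO) UMIs of it in GFP+. Mt3 therefore separated the mSC-like from the tSC-like cells, whereas Mt1 was present in each.

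Shares of cells with Mt3 were also highest in mSC-like cells. After each cell was thinned to 1000 UMIs, Mt3 was seen in 46.3% of mSC-like cells (43.3 to 49.4) in WT GFP+ and 36.4% (32.7 to 40.3) in Sod1KO GFP+, against 0.366% of 273 and 0 of 303 endothelial-like cells, the latter allowing up to 0.990%. Without thinning, at median depths of 6237.5 and 6110 UMIs, the mSC-like shares were 87.2% and 78.5%, and the endothelial-like ones 2.20% and 1.32% at 10820 and 11107 UMIs. Mt1 was seen in 82.3% and 78.0% of thinned mSC-like cells (98.4% and 97.3% unthinned). The poorest cells in Mt1 were those of cluster 1, endothelial-like cells led by the capillary genes Gpihbp1 and Car4, where thinned shares were 6.25% (WT) and 4.83% (Sod1KO) in GFP+ and 0.610% and 1.65% in GFP-. Their Mt1 level was 2.45% and 3.39%, then 1.99% and 2.45%, of that of their library, so free RNA of the suspension gave these cells no more Mt1 than that.

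By summed level, Mt1 was lower in the Sod1KO-labelled library in 9 of the 10 classes with at least 20 cells in both GFP+ libraries. Mt2 was lower in 10 of 10, with 8 of the Mt2 intervals below 0. The others were perineurial-like and pericyte-like cells, the latter at -0.14 (-1.47 to 1.13) from 14 and 10 UMIs. By any amount, between 44.3% (mesenchymal-like) and 55.1% (satellite-like) of all genes were lower in these classes. The 9 classes with lower Mt1 include endothelial-like cells, for which no direction is read below. In none of the classes was either gene at least 2-fold lower. Of all genes tested, the share that was at least 2-fold lower was 2.27% in mSC-like, 6.31% in tSC-like, 4.09% in perineurial-like, 1.39% in tenocyte-like, 1.13% in smooth muscle-like, 5.72% in pericyte-like, 1.89% in endothelial-like, 1.69% in mesenchymal-like, 2.58% in macrophage-like and 5.04% in satellite-like cells. The median log2 ratio of Sod1KO over WT was -0.68 for Mt1 and -0.53 for Mt2 over the classes, while the median over all genes lay between -0.06 and 0.05 in each class.

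In mSC-like cells Mt1 went from 5135 to 3105 CPM, a log2 ratio of -0.73 (-0.75 to -0.70), and Mt2 from 1048 to 638 CPM, -0.72 (-0.78 to -0.65). Only 0.692% of the 1733 genes that averaged at least 100 CPM in these cells had a ratio at or below that of Mt1. Mt3 differed less, from 675 to 567 CPM, -0.25 (-0.32 to -0.18). The Mt1 difference was also present among cells with a low, middle or high mitochondrial share, at -0.74, -0.68 and -0.70, and grew with depth from -0.45 among the cells with fewest UMIs to -0.87 among those with most.

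The other classes of the GFP+ sort gave ratios of similar size for Mt1. It was -0.58 (-0.63 to -0.54) in tSC-like cells, where 11.7% of the genes over 100 CPM lay at or below it. Different clusters held most tSC-like cells of each genotype, with 307 of the 381 WT cells in cluster 11 and 557 of the 881 Sod1KO cells in cluster 9, and Mt1 was at -0.53 (-0.60 to -0.47) within cluster 11 and -0.67 (-0.82 to -0.52) within cluster 9. Tenocyte-like cells, at -0.89 (-0.91 to -0.87), and smooth muscle-like cells, at -0.64 (-0.67 to -0.61), were lower too. The mesenchymal-like ratio was -0.48 (-0.52 to -0.44) and the endothelial-like one -0.73 (-0.82 to -0.65). The endothelial-like value mixed different cells, since cluster 24, of dividing cells, held 65 of the 303 Sod1KO cells and 1368 of their 2068 Mt1 UMIs but 7 of the 273 WT cells, and the ratio was -1.73 over the clusters with at least 20 cells in both libraries. Lower Mt1 was thus seen in Schwann-like and other cells.

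Macrophage-like and satellite-like cells of the GFP+ sort followed the same direction. Mt1 had ratios of -0.84 (-0.91 to -0.77) and -0.79 (-0.88 to -0.70) there, and Mt2 of -0.44 (-0.65 to -0.22) and -0.57 (-0.69 to -0.44). In perineurial-like cells, which sheathe nerve fascicles, Mt1 was at -0.41 (-0.55 to -0.27) and Mt2 at -0.05 (-0.40 to 0.30). Of the WT perineurial-like cells 3 of 42 held 50% of the Mt1 UMIs. The median cell had 215 CPM in WT and 290 CPM in Sod1KO, against the direction of the summed level. Pericyte-like cells were the exception, with Mt1 higher at 512 against 246 CPM, 1.06 (0.68 to 1.44), from 154 and 94 UMIs of 48 and 40 cells. Of the Sod1KO cells 4 of 48 held 50% of these UMIs, and the median cell had 143 CPM against 125 CPM in WT. In that class 5.86% of genes were at least 2-fold higher.

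Mt3 had a ratio in 8 classes, lower in 7 of them and with the interval below 0 in 4. Its ratio was -0.81 (-0.87 to -0.75) in tenocyte-like cells and -1.16 (-1.45 to -0.88) in smooth muscle-like cells. In macrophage-like cells it was -2.81 (-3.58 to -2.11), but 1 cell held 67 of the 105 UMIs of WT GFP+. The level of Mt3 in that class thus rested on 1 cell.

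**Figure D3:**
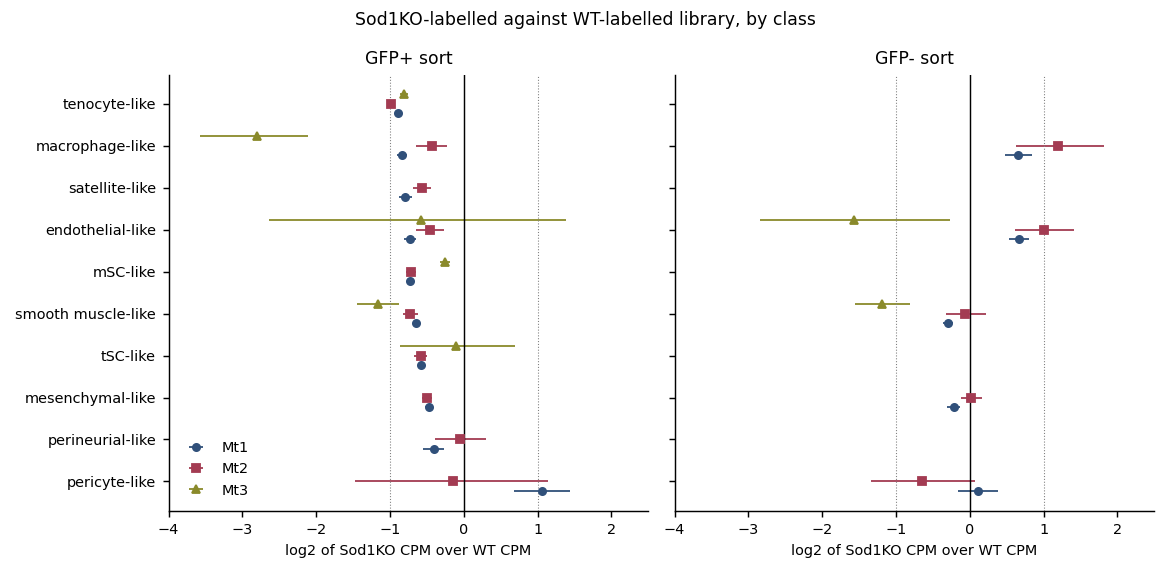
Log2 ratio of CPM, Sod1KO over WT by their labels, for Mt1, Mt2 and Mt3, by class and sort, with conditional binomial 95% intervals and dotted lines at a 2-fold difference. Mt1 lies left of 0 in 9 of 10 classes of the GFP+ sort and in 2 of 5 of the GFP- sort.

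In the GFP- sort Mt1 was lower in the library labelled Sod1KO in 2 of 5 classes and Mt2 in 2 of 5. The Mt1 count became 4 of 5 with classes from a per-cell marker rule and 4 of 5 without the 1% of cells richest in Mt1 and Mt2, so it depended on the processing. Smooth muscle-like cells went from 2432 to 1986 CPM of Mt1, -0.29 (-0.36 to -0.23), and mesenchymal-like cells from 1678 to 1442 CPM, -0.22 (-0.30 to -0.13). The median Mt1 ratio over the 5 classes was 0.11. By any amount, between 49.0% (endothelial-like) and 60.9% (macrophage-like) of all genes were lower in these classes. Genes at least 2-fold lower made up 3.03% in smooth muscle-like, 3.39% in pericyte-like, 1.96% in endothelial-like, 4.85% in mesenchymal-like and 9.22% in macrophage-like cells.

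By summed level, endothelial-like and macrophage-like cells of the GFP- sort went the opposite way to those of the GFP+ sort. For Mt1 in endothelial-like cells the GFP- ratio of 0.67 (0.54 to 0.80) turned to -0.32 as a mean of per-cell CPM and to -0.54 without the richest 1% of cells, so its direction is left unread. In macrophage-like cells Mt1 was 727 CPM in WT and 1144 CPM in Sod1KO, 0.65 (0.48 to 0.84), from 24 and 76 cells. Mt2 was at least 2-fold higher in both classes, at 1.20 (0.62 to 1.82) in macrophage-like and 1.00 (0.61 to 1.41) in endothelial-like cells, where 5.04% and 8.06% of genes were that much higher. Mt3 in smooth muscle-like cells kept the direction of the GFP+ sort, at -1.19 (-1.55 to -0.81), and in endothelial-like cells it was at -1.57 (-2.85 to -0.27) from 11 and 13 UMIs, where 1 WT cell held 7 of the 11 and the per-cell marker rule turned it to 0.21. The difference between the sorts was not tested.

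The sort itself went with large differences within a class and genotype. Endothelial-like cells of the WT pool had 748 CPM of Mt1 in GFP+ and 79.9 CPM in GFP-, a log2 ratio of GFP+ over GFP- of 3.23 (3.10 to 3.36), and 5.28% of genes were at least 2-fold higher in GFP+. In the Sod1KO pool the same ratio was 1.83 (1.75 to 1.91) with 12.8% of genes, and in perineurial-like cells of that pool 2.56 (2.40 to 2.72) with 4.87%. These ratios were larger in size than each genotype ratio of Mt1 in a class.

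Other classes differed less between sorts. Smooth muscle-like cells of WT differed by -0.10 (-0.16 to -0.04) and satellite-like cells of Sod1KO by 0.15 (0.04 to 0.26). Macrophage-like cells of WT were higher in GFP+ by 1.12 (0.95 to 1.28), against 9.43% of genes at least 2-fold higher, and those of Sod1KO were at -0.38 (-0.48 to -0.28). The ratio was 0.54 in mesenchymal-like cells of WT, and -0.45 in smooth muscle-like and 0.86 in pericyte-like cells of Sod1KO. Why a class differed between sorts was not tested.

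Classes hid differences between their clusters. Among tenocyte-like cells, cluster 0, led by Wif1, Angptl7 and Chad, had 2560 CPM (WT) and 1029 CPM (Sod1KO) of Mt1 in GFP+ and 973 CPM in the Sod1KO cells of GFP-, a genotype ratio of -1.31 (-1.34 to -1.29) in GFP+. Cluster 15, whose leading genes included Col22a1, Thbs4 and the tendon factor gene Scx, had 2659, 2517 and 2756 CPM in the same libraries, a ratio of -0.08 (-0.11 to -0.05). Cluster 31 went from 490 to 270 CPM in GFP+. The lower Mt1 of tenocyte-like cells was thus seen in clusters 0 and 31 and hardly in cluster 15. The intervals of clusters 0 and 15 lay far apart, and the latter had close to the same level in all 3 libraries.

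Mt3 divided the same clusters. In cluster 0 it was 326 CPM (WT) and 190 CPM (Sod1KO) in GFP+ and 138 CPM in the Sod1KO cells of GFP-, and in cluster 15 it was 15.2, 9.82 and 3.26 CPM. A large part of the muscle's Mt3 outside Schwann-like cells was therefore in cluster 0. In the unnamed cluster 12, whose leading genes were Tenm2, Cldn1 and Crabp2, Mt3 was 259 CPM in WT GFP+ and 142 CPM in Sod1KO GFP+, and Mt1 3306 and 1842 CPM.

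Endothelial-like clusters differed widely in Mt1. Mt1 in cluster 1, the cells with capillary genes, was 60.6 CPM (WT) and 47.6 CPM (Sod1KO) in GFP+, and 10.1 and 15 CPM in GFP-. Cluster 10, whose leading genes included Gkn3, Sema3g and Gja5, genes of arterial endothelium, had 2599, 900, 315 and 419 CPM. Cluster 27, led by the venous genes Sele and Ackr1, had 281 and 71.8 CPM in GFP+ and 110 CPM in the Sod1KO cells of GFP-. The cells of cluster 24 were not set apart by vessel type. They were led by cell division genes such as Top2a and Mki67, had 3 of the 9 endothelial markers, and were left unnamed without doublet removal and with a stricter cell filter. They reached 20 cells in the Sod1KO libraries only, with 873 CPM in GFP+ and 394 CPM in GFP-. Mt1 was thus higher in the cells with arterial genes than in those with capillary genes in all 4 libraries.

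Within smooth muscle-like cells, cluster 3 (Pln, Myh11) went from 2381 to 1524 CPM of Mt1 in the GFP+ sort, and cluster 23 (Actg2) from 940 to 998 CPM, 0.09 (-0.04 to 0.21). Mesenchymal-like cells led by Pi16 (cluster 20) went from 3213 to 2087 CPM, those led by Myoc (cluster 4) from 1779 to 1610 CPM. Of the tSC-like clusters, 9 went from 1520 to 955 CPM and 11 from 1421 to 982 CPM, while cluster 33, led by Scn7a, went from 1533 to 1857 CPM, 0.28 (0.07 to 0.48), in 26 and 30 cells. The tSC-like cluster 30, with 87 cells in Sod1KO GFP+, had 94.3 CPM. Of the 28 clusters, named or not, with at least 20 cells in both GFP+ libraries, 23 had lower Mt1 in the library labelled Sod1KO, and of the 12 in GFP-, 6.

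**Figure D4:**
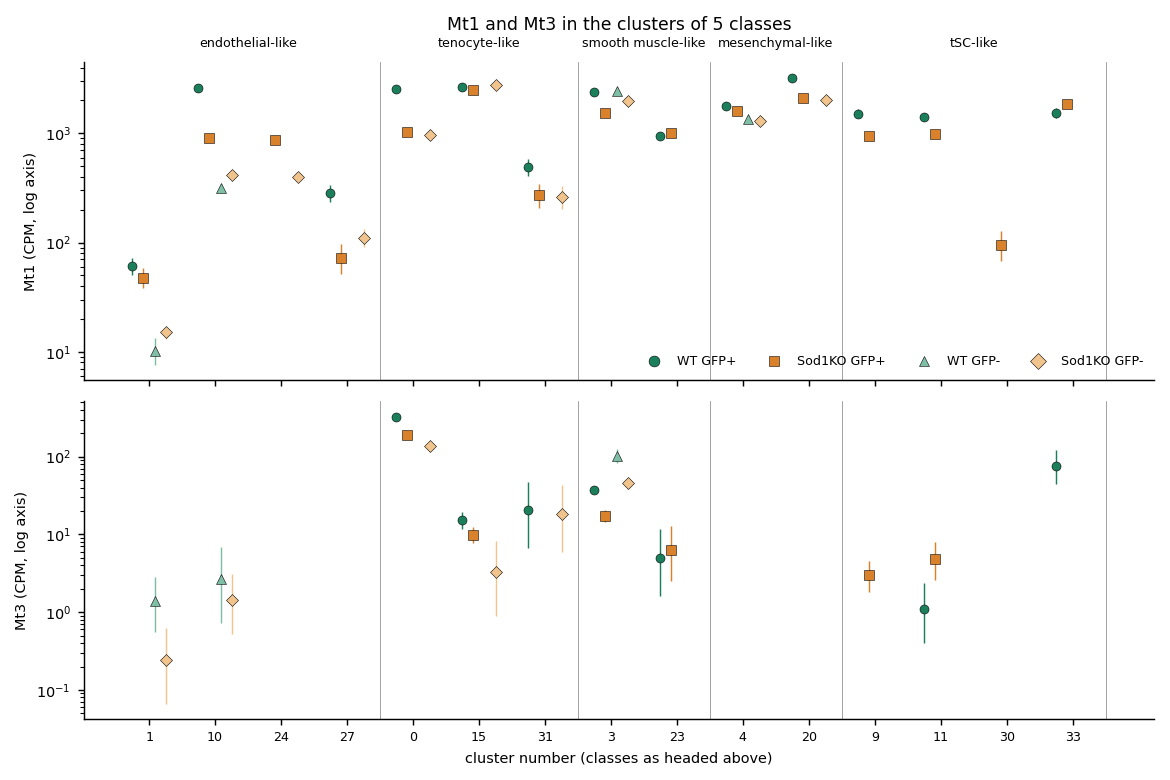
Mt1 (upper panel) and Mt3 (lower panel) in CPM on log axes in the clusters of 5 classes, with 1 point per library of at least 20 cells and more than 3 UMIs and exact Poisson 95% intervals. Mt1 differs in tenocyte-like cluster 0 (2560 and 1029 CPM in GFP+) but little in cluster 15 (2659 and 2517 CPM), and is higher in endothelial-like cluster 10 than in cluster 1 in each library.

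Cells of a class held Mt1 unevenly. In mSC-like cells the top 10% of cells held 36.2% of the Mt1 UMIs in WT GFP+ and 34.0% in Sod1KO GFP+, and the median cell had 3085 and 1985 CPM. In endothelial-like cells the top 10% held 94.4%, 79.5%, 87.1% and 94.9% (the GFP+ pair, WT first, then the GFP- pair), and the median cell had none. In WT GFP+ 6 of 273 endothelial-like cells held 50% of its Mt1 UMIs, and in Sod1KO GFP- 9 of 1606. The endothelial-like ratios between genotypes and sorts therefore rested on few cells, which the counting intervals do not cover.

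In cluster 10, 50% of the Mt1 UMIs came from 5 of 63 cells (WT) and 2 of 51 (Sod1KO) in GFP+, and from 12 of 149 and 7 of 315 in GFP-. In the GFP- sort the share of thinned cells of this cluster with Mt1 was 27.5% in WT and 9.21% in Sod1KO (44.97% and 27.3% unthinned, at median depths of 7648 and 11714 UMIs), against the direction of the summed level. Over all endothelial-like cells of the GFP+ sort the thinned share was 12.1% in WT and 19.1% in Sod1KO (44.7% and 48.8% unthinned), again against the summed level. No direction between genotypes is therefore read for endothelial-like cells.

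Mt1 and Mt2 varied together from cell to cell. At 1000 UMIs per cell the Pearson correlation of their log counts over cells was 0.55 in mSC-like cells of WT and 0.42 in those of Sod1KO, and 0.61 and 0.57 in satellite-like cells of the GFP+ sort. It was 0.23 and 0.16 in smooth muscle-like cells, where Mt2 counts were sparse. Mt1 and Mt3, in contrast, had a correlation of 0.13 and 0.21 over mSC-like cells. Cells of 1 library share its preparation, and these values are descriptions.

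**Figure D5:**
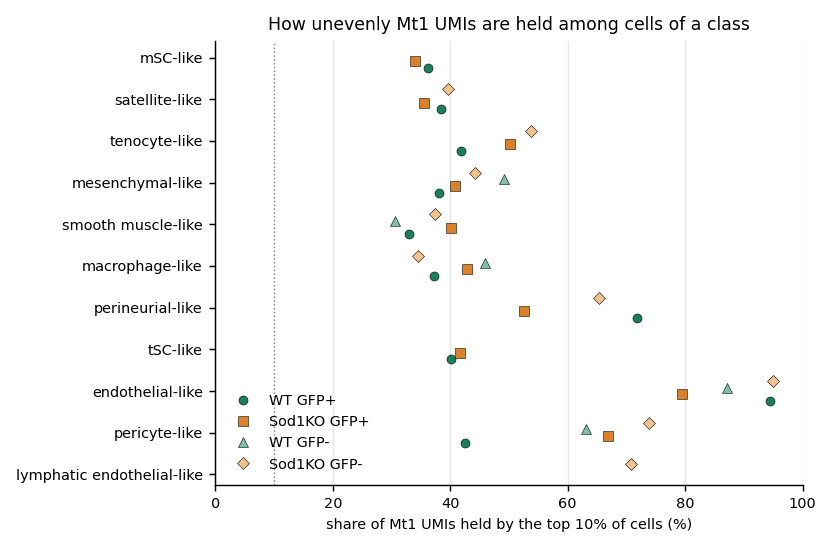
Share of the Mt1 UMIs of a class held by the 10% of its cells with most of them, by class and library, in percent, with the dotted line at an even share of 10%. The share is 34.0% and 36.2% in mSC-like cells and between 79.5% and 94.9% in endothelial-like cells.

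Over the 34 profiles of a class in a library, the gene whose level was most like that of Mt1 was Mt2, with a Pearson correlation of 0.89 of log2(CPM + 10) over 7244 genes compared, and Mt1 was the gene most like Mt2. Next to Mt1 came Sdc4, a cell surface proteoglycan (0.75), Eprs, a transfer RNA synthetase (0.69), Tnfrsf12a, the receptor of TWEAK (0.67), Eef1d, a translation elongation factor (0.67), Gm15417 (0.66), Tmbim1 (0.65), Fasn, the fatty acid synthase (0.64), Tiparp (0.64) and Lgals1, a galectin (0.64). Next to Mt2 came Eef1d (0.84), Vgll3 (0.78), Fasn (0.74), Gfpt2 (0.74), Olfml2b (0.74), Gas5 (0.74), Rplp0 (0.74), Cdon (0.74) and Loxl1 (0.73). Mt3 was at 0.49 with Mt1 and 0.36 with Mt2, and ranked 117 and 851 among the genes most like each. The genes most like Mt3 were Kcnk1, a potassium channel (0.94), C1ql3 (0.84), Col24a1 (0.84), Crtac1 (0.83) and Yjefn3 (0.80). Profiles of 1 library share depth and free RNA, and the values are descriptions.

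Genes of the pathways known to act on metallothioneins were counted in the same GFP+ cells. Among 30 genes of zinc and copper handling (transporters, chaperones and MTF-1), 24 had a ratio in mSC-like cells, 12 of them lower and 12 higher in Sod1KO, with 0 past 2-fold in either direction and a median of -0.02 against -0.03 over all genes. tSC-like (23 genes), endothelial-like (24) and mesenchymal-like cells (24) likewise had 0 past 2-fold, with medians of -0.04, -0.09 and 0.02. Mtf1 itself was at 19.5 and 16.6 CPM in mSC-like cells, -0.24 (-0.66 to 0.18). The members with the largest ratios in these 4 classes were Slc39a8 (0.92, -0.33 to 2.32) in endothelial-like cells, Slc39a11 (0.87, 0.42 to 1.35) in tSC-like cells, Slc30a1 (-0.76, -1.13 to -0.39) and Slc39a6 (0.75, 0.27 to 1.25) in endothelial-like cells, all zinc transporters. Slc39a6 was at 0.05 (-0.79 to 0.88) within cluster 1, the largest endothelial-like cluster. In other classes 2 of 20 members were at least 2-fold higher in perineurial-like cells, against 6.74% of all genes. In pericyte-like and satellite-like cells 1 of 10 and 1 of 17 were that much lower, against 5.72% and 5.04%.

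The 12 glucocorticoid-responsive genes were mostly lower. In mSC-like cells 9 of 12 were lower and 4 by at least 2-fold (median -0.37), against 54.2% and 2.27% of all genes. In tSC-like cells 9 were lower and 3 past 2-fold (median -0.65), against 53.2% and 6.31%. In endothelial-like cells 8 and 2 were (median -0.72), against 45.1% and 1.89%, and in mesenchymal-like cells 10 and 1 (median -0.28), against 44.3% and 1.69%. The medians over all genes in these classes were -0.03, -0.03, 0.05 and 0.04. The list was mostly lower in the GFP- sort too. Medians there were -0.14 in smooth muscle-like, -0.54 in pericyte-like, -0.49 in endothelial-like, -0.43 in mesenchymal-like and -0.39 in macrophage-like cells. Genes lower were 9 of 11, 12 of 12, 8 of 12, 8 of 12 and 7 of 10, in that order. Of all genes 54.5%, 52.9%, 49.0%, 50.6% and 60.9% were lower. By summed level Mt1 had ratios of -0.29, 0.11, 0.67, -0.22 and 0.65 there.

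Klf9, a transcription factor gene switched on by the glucocorticoid receptor, went from 499 to 170 CPM in tSC-like cells, -1.55 (-1.64 to -1.47), and was at -1.53 (-1.67 to -1.40) within cluster 11 and -1.25 (-1.53 to -0.95) within cluster 9. Tsc22d3, which encodes the glucocorticoid-induced leucine zipper, went from 142 to 56.9 CPM in mSC-like cells, -1.32 (-1.53 to -1.12). Zbtb16 and Pdk4 had ratios of -1.88 (-2.33 to -1.44) and -1.47 (-2.06 to -0.89) in tSC-like cells, but of -0.76 (-1.30 to -0.24) and -0.45 (-1.23 to 0.28) within cluster 11. Members of the list did not all move, and Fkbp5 was at -0.13 (-0.73 to 0.46) in mSC-like cells. Whether these genes and the metallothioneins moved for 1 reason was not tested.

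Of 12 Nrf2 antioxidant targets, 1 of 10 with a ratio was at least 2-fold lower in mSC-like cells (3 lower, 7 higher, median 0.10), against 2.27% of all genes, and 3 of 12 in tSC-like cells (9 lower, 3 higher, median -0.29), against 6.31%. In endothelial-like cells 1 was at least 2-fold higher (median -0.00), against 12% of all genes, and in mesenchymal-like cells 1 was at least 2-fold lower (median 0.02), against 1.69%. The largest ratios were those of Slc7a11, the cystine transporter, at -2.33 (-3.47 to -1.30) from 31 and 11 UMIs (31 and 1 within cluster 11) and Gsta4 at -1.56 (-2.10 to -1.03) in tSC-like cells (-0.99, -1.78 to -0.26, within cluster 11), Gclc at -1.45 (-1.64 to -1.26) in mesenchymal-like cells and Gstm1 at -1.26 (-1.68 to -0.86) in mSC-like cells.

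Immediate early and heat shock genes, which cell isolation can induce, had 0 of 12 past 2-fold in mSC-like, endothelial-like and mesenchymal-like cells. Their medians there were -0.07, -0.33 and -0.08. By any amount 8, 11 and 7 of the 12 were lower in these classes, against 54.2%, 45.1% and 44.3% of all genes. In tSC-like cells 2 of 12 were at least 2-fold higher (median -0.07), Hspa1b at 1.62 (1.36 to 1.89) and Hspa1a at 1.19 (1.03 to 1.36), against 5.64% of all genes. Egr1 had -0.72 (-0.76 to -0.68) in tSC-like and Ier2 -0.66 (-0.72 to -0.59) in endothelial-like cells. Within tSC-like cluster 11 Hspa1b was at 1.39 (1.04 to 1.75), Hspa1a at 0.89 (0.65 to 1.13) and Egr1 at 0.04 (-0.01 to 0.09). Within cluster 9 the same genes were at 2.13, 2.12 and -0.74, and within cluster 33 at -0.47, -0.34 and -0.95. Ier2 was at -0.39 (-0.48 to -0.30) within endothelial-like cluster 1 and -0.20 (-0.33 to -0.06) within cluster 10. Within cluster 27 it was higher, at 0.50 (0.23 to 0.77).

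Of the 10 genes of interleukin 6 signaling and the acute phase, 6 had a ratio in mSC-like cells. All 6 were higher, 3 of them by at least 2-fold, against 1.75% of all genes. Their median was 0.79, against -0.03 over all genes, of which 54.2% were lower. Osmr, a receptor of oncostatin M, was at 2.17 (1.52 to 2.86) and Bcl3 at 1.33 (0.73 to 1.94) there. Perineurial-like cells had 7 of 8 higher (median 0.81), where 50.9% of all genes were lower. Of the 8, 3 were at least 2-fold higher there, against 6.74% of all genes. In tSC-like cells 1 of 8 was at least 2-fold higher (median -0.22), against 5.64% of all genes. In mesenchymal-like cells 0 of 9 were (median 0.09), against 3.43% of all genes. Of 9 in endothelial-like cells 1 was that much higher and 1 that much lower (median 0.00), against 12% and 1.89% of all genes. In endothelial-like cells these were Timp1, an inhibitor of metalloproteinases, at 4.12 (3.25 to 5.14), and Lcn2 at -1.41 (-2.83 to -0.12) from 17 and 8 UMIs. Timp1 had 11 and 239 UMIs over the class but 6 and 4 in cluster 10, 5 and 5 in cluster 27 and 0 in cluster 1.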

How the data were processed

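The authors deposited counts of UMIs for each gene in each cell, made with Cell Ranger (version 7.1.0 in the matrix headers and the submitters' processing notes, which give mm10 as the build). The methods of the paper give GRCm39 and GRCm38 as well. The authors' later removal of ambient RNA and doublets was not used here. Cells had more than 200 genes and under 10% mitochondrial UMIs. Doublets were scored against simulated ones and 0.8% of cells per 1000 barcodes removed (210, 366, 27 and 287 in WT GFP+, Sod1KO GFP+, WT GFP- and Sod1KO GFP-). Cells were clustered together (2000 variable genes without the 3 members, 30 components, 20 neighbours, Leiden resolution 1) with Python 3.11.15, scipy 1.17.1, scikit-learn 1.9.0, igraph 0.11.9 and leidenalg 0.10.2. A class needed 3 markers above 20 CPM and 2 times the other clusters. These limits were set after seeing the clusters, and class names rebuilt here can differ from those of the study. In all, 15 of 37 clusters stayed unnamed.

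Levels are UMIs summed over a class as CPM. Ratios use a floor of 3 UMIs for 0 and classes of at least 20 cells, without a printed value where both counts were at or under the floor. Background shares use genes with at least 20 UMIs over both libraries. Intervals are Poisson, Clopper-Pearson or conditional binomial. The ratio and its interval were tested on simulated data. With 1 library per group nothing was tested across animals. The members, gene lists and markers were chosen with earlier results of these data known. Named genes were the members, the 10 genes (5 for Mt3) most like each in profile among those with a mean of at least 20 CPM (2 for Mt3), and up to 4 per list by size of ratio in 4 classes of GFP+. Mtf1, Fkbp5 and genes that lead a cluster were named after their values were seen. Another alternative, added after seeing the data, is not reported here.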

Additional observations from a re-analysis of the deposited data

Results flagged for a closer look

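Mt1 and Mt2 had opposite genotype ratios by summed level in the GFP+ and GFP- sorts, with both counting intervals clear of 0, in endothelial-like and macrophage-like cells. In endothelial-like cells the log2 ratio of Sod1KO over WT was -0.73 in GFP+ and 0.67 in GFP- for Mt1, and -0.46 and 1.00 for Mt2. In macrophage-like cells it was -0.84 and 0.65 for Mt1, and -0.44 and 1.20 for Mt2. The difference between sorts was not tested, as each rests on 2 libraries. Among GFP- endothelial-like cells, those with fewest UMIs had an Mt1 ratio of -2.14, those of middle depth -0.66 and those with most 1.94. The endothelial-like values rested on few cells, and the GFP- one for Mt1 reversed under some other processing, so no direction is read for them.

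The same opposition was seen in single clusters, also untested. It was -1.06 and 1.58 for Mt2 in cluster 1, and -1.53 and 0.41 for Mt1 and -1.10 and 0.80 for Mt2 in cluster 10, the endothelial-like cells with capillary and arterial genes. It was -0.17 and 0.27 for Mt2 in cluster 4, mesenchymal-like cells. In the unnamed clusters 16, led by muscle fibre genes such as Mylpf and Acta1, and 21, whose leading genes included Rps21 and Rps29, Mt1 had -0.86 and 0.87, and -0.76 and 2.16.

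Mt3 reached 812 CPM (706 to 930, 210 UMIs) in the unnamed cluster 36 of WT GFP-, above every named class of that library with at least 20 cells. The cluster held 34 cells there and 1 in Sod1KO GFP+, and was led by Igkc, Mt3, Uts2r and Iglc2. Its Mt1 was 754 CPM.

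Mt4, which no comparison used, was counted at 78 UMIs in WT GFP+ and 43 in Sod1KO GFP+, against 1 in each GFP- library. Of these, 37 and 36 were in mSC-like cells.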

How the results depend on the processing

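In the GFP+ sort, none of 288 recomputed genotype ratios of a member in a class turned the direction of a ratio whose interval excluded 0. The 288 also include ratios whose interval held 0, where a change of sign was not counted. Classes lower in Sod1KO stayed within 1.5 times of 9 of 10 (Mt1) and 10 of 10 (Mt2). In mSC-like cells the Mt1 ratio of -0.73 became -0.78 with classes from a per-cell marker rule, -0.68 as a mean of per-cell CPM, -0.67 with mitochondrial, haemoglobin and Gm42418 UMIs out of the totals and -0.69 within cluster 2. The marker rule gave -0.80 for Mt2 and -0.35 for Mt3, and a stricter filter (over 500 genes, under 5% mitochondrial) -0.38 for Mt3. In tenocyte-like cells the Mt1 ratio of -0.89 became -0.91 without doublet removal, -0.85 with the stricter filter, -0.95 per cell, -0.85 with the reduced totals and -1.31 within cluster 0. The values within a cluster, and those within clusters of at least 20 cells in both libraries, are alternatives added after seeing the data, and the latter moved Mt1 in endothelial-like cells from -0.73 to -1.73 in GFP+ and from 0.67 to 0.28 in GFP-.

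In the GFP- sort, 4 of 124 recomputed ratios reversed in this sense. The 124 likewise include ratios whose interval held 0, so changes of sign there are not among the 4. Mt1 in endothelial-like cells became -0.32 per cell and -0.54 without the 1% of cells richest in Mt1 and Mt2, Mt3 there 0.21 under the marker rule, and Mt1 in mesenchymal-like cells 0.22 when the members entered the clustering. The count of classes with lower Mt1 went from 2 of 5 to 1 of 3 with the stricter filter, to 4 of 5 under the marker rule, to 1 of 5 with the members in the clustering and to 4 of 5 without the richest cells. For Mt2 it went from 2 to 1 with median-of-ratios scaling and with the reduced totals. The causes were not tested.

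The median share of genes at least 2-fold lower over classes was 2.43% in GFP+ and 3.39% in GFP-, and became 5.70% and 9.50% with a minimum of 1 UMI and 0.788% and 1.02% with 100. With a pseudocount of 1 CPM, 9 of the 10 names most like Mt1, 5 of 10 for Mt2 and 2 of 5 for Mt3 were shared. No paired analysis was possible because each group is 1 library.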
